A study of Mus musculus with 9 samples.

Results

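Interferon-gamma-induced GTPases were followed through 9 mouse livers. Members were the rows of the deposited tables whose gene symbol was Gbp2, Gbp3, Gbp6, Gbp7, Irgm1, Irgm2, Igtp, Tgtp1, Tgtp2 or Iigp1. Rows were found for 9 of these 10 symbols, among 20325 rows in all, and no row was named Gbp7. All 9 passed the filter on low counts that left 12037 genes for testing.

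The livers came from male C57BL/6J mice on chow, 3 in each of 3 groups. Germ-free mice (GF) carried no microbes. The GF+SCFA mice were also germ-free and drank water containing acetate (67.5 mM), propionate (25.9 mM) and butyrate (40 mM), the short-chain fatty acids that gut bacteria make from fibre. Colonised mice (ConvD) were born germ-free and were gavaged at 15 weeks of age with the cecal contents of donors raised conventionally and were kept for 4 weeks. Per the labels all 3 groups were dissected at 19 weeks of age, whereas the series' design text gives an age of 14 weeks for all. Animals were housed together by colonisation status, so cage and group cannot be told apart. The labels do not tie a sample to a named animal, so each p-value reflects only the spread among these samples, which may be technical.

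Interferon-gamma is made mainly by T cells and NK cells. It binds a receptor formed by IFNGR1 and IFNGR2, and the kinases JAK1 and JAK2 pass the signal on to transcription factors that bind GAS elements in the promoters of target genes. IRF1, itself a target, and IRF9 act at ISRE elements. Among the strongest targets in mouse cells are GTPase families that act on the membranes of vacuoles holding intracellular parasites and bacteria. Immunity-related GTPases (IRGs) are small and the guanylate-binding proteins (GBPs) are large. Effector IRGs such as TGTP1, TGTP2 and IIGP1 load onto the vacuole and disrupt it. Regulatory IRGs, IRGM1, IRGM2 and IGTP, sit on the cell's own membranes and hold the effectors inactive there.

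The division between regulators and effectors is written in the P-loop, the stretch that grips the phosphates of the nucleotide. In the following lines the reference codons of this loop are shown 5′ to 3′, from GENCODE M21 transcripts of GRCm38, with the seventh codon in capitals. They are given because the 3 regulators share this loop base for base.
Irgm1: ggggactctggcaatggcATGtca
Irgm2: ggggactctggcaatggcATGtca
Igtp: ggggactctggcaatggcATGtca
Tgtp1: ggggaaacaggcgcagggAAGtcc
Tgtp2: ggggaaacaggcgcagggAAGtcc
Gbp2: ggcctctaccgcacaggcAAAtcc
ATG encodes methionine, which makes the regulators the GMS class. AAG and AAA encode lysine, the residue of the GKS class found in effector IRGs and in GBPs.

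Igtp and Irgm2 are neighbours on chromosome 11, and the reading frames of these 2 regulators were identical at 72.7% of 1188 aligned bases. Those of Tgtp1 and Tgtp2 were identical at 1241 of 1245 bases, or 99.7%. Of the 81 deposited counts of the members, 79 were not whole numbers, because the counting program divides reads that match several genes. The split of reads between Tgtp1 and Tgtp2 is therefore uncertain, and so are their separate levels and folds. Counts of members passing are also given below with the 2 genes summed.

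Symbols of the GBPs needed care. The row named Gbp6 lists transcripts that RefSeq assigns to Gbp7, and the row named Mpa2l lists those that RefSeq assigns to Gbp6. The row symbols are kept here. Mpa2l was not chosen by the rule, was added after the symbols were checked, and is given beside the members without being counted among them.

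Promoters of the members were searched for the letters of both elements. RefSeq windows of 300 bases on GRCm38.p6, from 250 before the start to 50 after it, matched 8 of the 10 symbols in 9 windows, since Gbp3 has windows for 2 starts. No window was found for Gbp6 or Iigp1. The motifs searched on both strands were GAS, as TTCNNNGAA, and ISRE, as GAAA, any 2 bases and GAAA again, or the reverse complement with TTTC in place of GAAA. The lines below give the 120 bases before the start for genes that show the arrangements found, 5′ to 3′ on the gene's strand, with GAS and ISRE letters in capitals.
Irgm2, chr11:58214857-58214976, plus strand: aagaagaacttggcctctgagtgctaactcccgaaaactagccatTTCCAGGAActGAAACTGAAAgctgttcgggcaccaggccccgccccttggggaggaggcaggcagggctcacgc
Igtp, chr11:58199436-58199555, plus strand: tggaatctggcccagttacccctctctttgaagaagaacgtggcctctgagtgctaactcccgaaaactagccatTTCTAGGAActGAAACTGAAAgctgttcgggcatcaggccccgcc
Tgtp1, chr11:48992247-48992366, minus strand: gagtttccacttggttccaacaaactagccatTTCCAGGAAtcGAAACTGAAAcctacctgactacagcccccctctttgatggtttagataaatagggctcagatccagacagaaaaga
Tgtp2, chr11:49064213-49064332, minus strand: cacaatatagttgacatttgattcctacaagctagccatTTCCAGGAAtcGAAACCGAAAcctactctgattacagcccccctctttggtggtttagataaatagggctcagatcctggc
Irgm1, chr11:48871421-48871540, minus strand: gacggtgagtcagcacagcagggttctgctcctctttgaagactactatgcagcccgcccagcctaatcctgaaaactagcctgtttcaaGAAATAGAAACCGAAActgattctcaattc
Gbp7, chr3:142530216-142530335, plus strand: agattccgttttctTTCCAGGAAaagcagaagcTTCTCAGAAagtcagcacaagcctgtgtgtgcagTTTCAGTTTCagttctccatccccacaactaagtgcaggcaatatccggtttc
Gbp2, chr3:142620543-142620662, plus strand: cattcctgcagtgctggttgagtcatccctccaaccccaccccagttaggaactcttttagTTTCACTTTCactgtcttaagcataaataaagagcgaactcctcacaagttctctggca
In Irgm2, Igtp, Tgtp1 and Tgtp2 the GAS letters began 11 bases before the ISRE letters, with 2 bases between them. Irgm1 and Gbp2 held ISRE letters without GAS letters in the window, and Irgm1 held 2 overlapping copies. The Gbp7 window held 2 GAS copies and an ISRE.

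ISRE letters were present in 8 of 9 member windows and in 3.44% of the 32851 mouse promoter windows of the same length. GAS letters were present in 5 of 9 and in 8.3% of all windows, and both together in 5 of 9 and in 0.454%. The 11-base spacing, with GAS letters first on the gene's strand, occurred in 5 of the 32851 windows (0.0152%). These are the windows of Irgm2, Igtp, Tgtp1, Tgtp2 and Gm12185, a further gene of chromosome 11. The spacing was counted after the letters had been seen, and the reverse order, with ISRE letters first, was not counted. A match of letters describes the window and shows no binding.

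**Figure D1:**
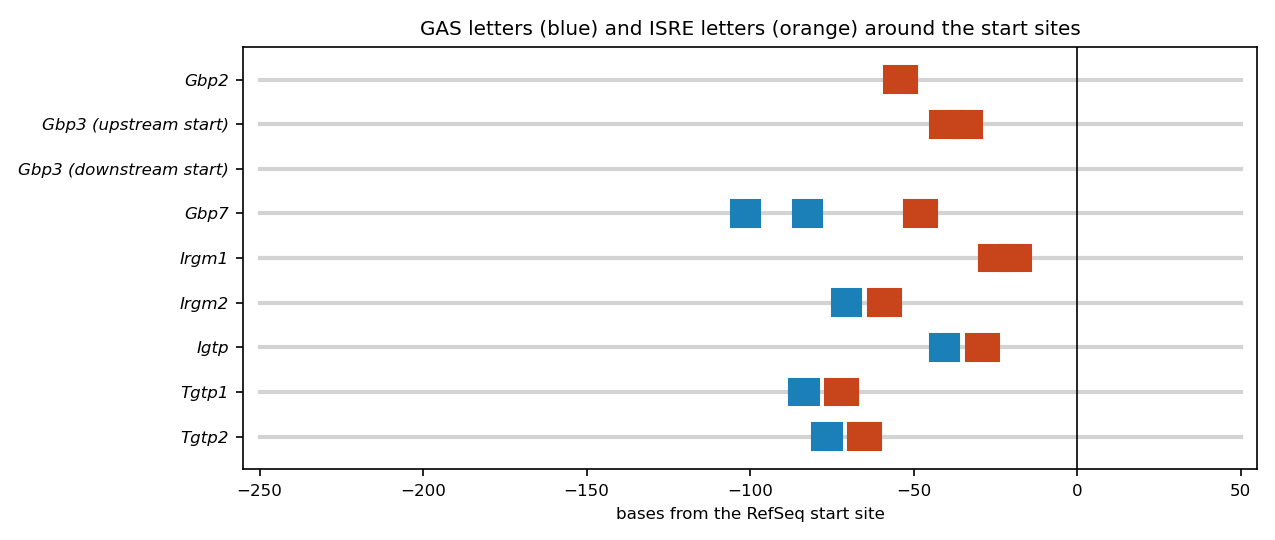
Positions of GAS letters (blue) and ISRE letters (orange) in the RefSeq promoter windows of 8 member genes, in bases from the start site, with the start site at 0 and 1 grey line for each window. Each box covers the bases of 1 match, and overlapping matches merge. The blue and orange boxes lie side by side in Irgm2, Igtp, Tgtp1 and Tgtp2, and all boxes lie before the start.

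Libraries held 18193071 to 21627696 expected counts per liver, and the 10 largest genes took 20.9% to 23.3% of them. Levels below are CPM, counts scaled to the library total after TMM normalisation, and levels compared between genes are TPM, which also divide by transcript length. The labelled tissue is liver, and hepatocyte markers summed to 96827 to 123789 CPM in the 9 libraries. The ConvD replicate 1 liver stood apart from the other colonised livers in the members: its median CPM over the GF mean was 1.05, against 1.78 in replicate 2 and 1.53 in replicate 3. Folds and counts of calls that rest on the colonised livers are therefore also given without it. That liver was singled out on the members' own values. Larger member folds without it follow from this choice and lend no support.

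On the TPM scale Iigp1 was the most abundant member in every group, with 205.8 ± 27.8 TPM in GF livers (SD, n = 3). The gene is known to be transcribed in mouse liver from an additional, liver-specific promoter without interferon. It made up 52.6% to 64.4% of the members' summed TPM across the 9 livers. In GF livers it was followed by Irgm1 at 38.8 ± 2.70 TPM, with no overlap between the 2 genes. Igtp (26.4 ± 5.47 TPM) and Irgm2 (21.9 ± 1.07 TPM) came next with overlapping ranges, then Tgtp1 at 9.27 ± 2.28 TPM. The rows Gbp6, Mpa2l, Gbp3, Gbp2 and Tgtp2 lay between 3.94 and 6.34 TPM on average, and each overlapped its neighbour in this order.

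The order of the means changed in its middle in ConvD livers. Igtp averaged 60.8 ± 26.9 TPM there, Irgm1 58.9 ± 13.3 TPM and Irgm2 46.2 ± 15.2 TPM (SD, n = 3), each overlapping its neighbour. Igtp was above Irgm1 only in ConvD replicate 2 (90.0 and 71.9 TPM). Irgm1 was above Igtp in ConvD replicate 1 (45.2 and 37.1 TPM) and replicate 3 (59.6 and 55.1 TPM), as in the GF means. Summed over the 9 members, the level was 288.4, 313.1 and 366.8 TPM in the GF livers, 240.5, 250.1 and 253.3 TPM in the GF+SCFA livers, and 386.5, 605.9 and 449.5 TPM in the ConvD livers. The 3 groups did not overlap in this sum, which Iigp1 dominates.

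Among the regulators, Irgm1, which also takes part in autophagy, measured 58.9, 53.4 and 53.3 CPM in the GF livers, 54.8, 46.2 and 50.3 CPM in the GF+SCFA livers, and 58.3, 98.4 and 84.7 CPM in the ConvD livers. ConvD replicates 2 and 3 were above the other 7 livers, and ConvD replicate 1 lay among the GF livers. Irgm2, a Golgi-associated regulator, measured 48.1, 53.1 and 48.3 CPM in GF, 32.1, 31.8 and 34.2 CPM in GF+SCFA, and 68.6, 137.9 and 96.3 CPM in ConvD livers. The 3 groups of Irgm2 did not overlap, with GF+SCFA lowest and ConvD highest. Igtp, a regulator at the endoplasmic reticulum, measured 29.1, 33.2 and 39.0 CPM in GF, 25.1, 29.7 and 29.3 CPM in GF+SCFA, and 43.2, 111.5 and 70.9 CPM in ConvD livers. All ConvD values of Igtp lay above the other 6 livers, while GF and GF+SCFA overlapped.

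Among the effectors, Tgtp1 measured 13.3, 16.9 and 19.8 CPM in GF, 8.08, 10.2 and 9.40 CPM in GF+SCFA, and 14.8, 48.0 and 41.3 CPM in ConvD livers. GF+SCFA livers were below all others, and ConvD replicate 1 was inside the GF range. Its near copy Tgtp2 measured 6.40, 6.47 and 8.41 CPM in GF, 4.21, 5.46 and 7.40 CPM in GF+SCFA, and 7.82, 17.6 and 13.5 CPM in ConvD livers. GF overlapped with both other groups, and all ConvD values were above those of GF+SCFA. Iigp1, the effector known as IRGA6, measured 356.2, 410.4 and 424.1 CPM in GF, 303.5, 298.0 and 316.9 CPM in GF+SCFA, and 419.6, 587.5 and 461.8 CPM in ConvD livers. GF+SCFA livers were below all others, and ConvD replicate 1 lay just under the highest GF liver.

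Within each group the GBP rows lay below the 3 regulators in CPM, and some lay above Tgtp1 or Tgtp2. Gbp2, a GBP that is anchored to membranes by a lipid tail, measured 6.88, 8.66 and 8.46 CPM in GF, 5.46, 5.86 and 6.45 CPM in GF+SCFA, and 6.20, 10.3 and 11.4 CPM in ConvD livers. ConvD replicate 1 was below every GF liver and inside the GF+SCFA range. Gbp3, of the same cluster on chromosome 3, measured 7.42, 8.96 and 10.3 CPM in GF, 7.52, 8.23 and 7.63 CPM in GF+SCFA, and 8.63, 14.3 and 13.4 CPM in ConvD livers. Only ConvD replicates 2 and 3 stood clear of the other livers. The row Gbp6 (RefSeq Gbp7, from the same cluster) measured 20.99, 24.2 and 23.4 CPM in GF, 15.6, 21.5 and 17.9 CPM in GF+SCFA, and 22.7, 31.5 and 29.1 CPM in ConvD livers. ConvD exceeded GF+SCFA without overlap, and GF overlapped with both. The row Mpa2l (RefSeq Gbp6, on chromosome 5) measured 18.1, 17.7 and 16.6 CPM in GF, 13.0, 15.5 and 14.8 CPM in GF+SCFA, and 20.8, 42.2 and 36.6 CPM in ConvD livers. Its 3 groups did not overlap.

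**Figure D2:**
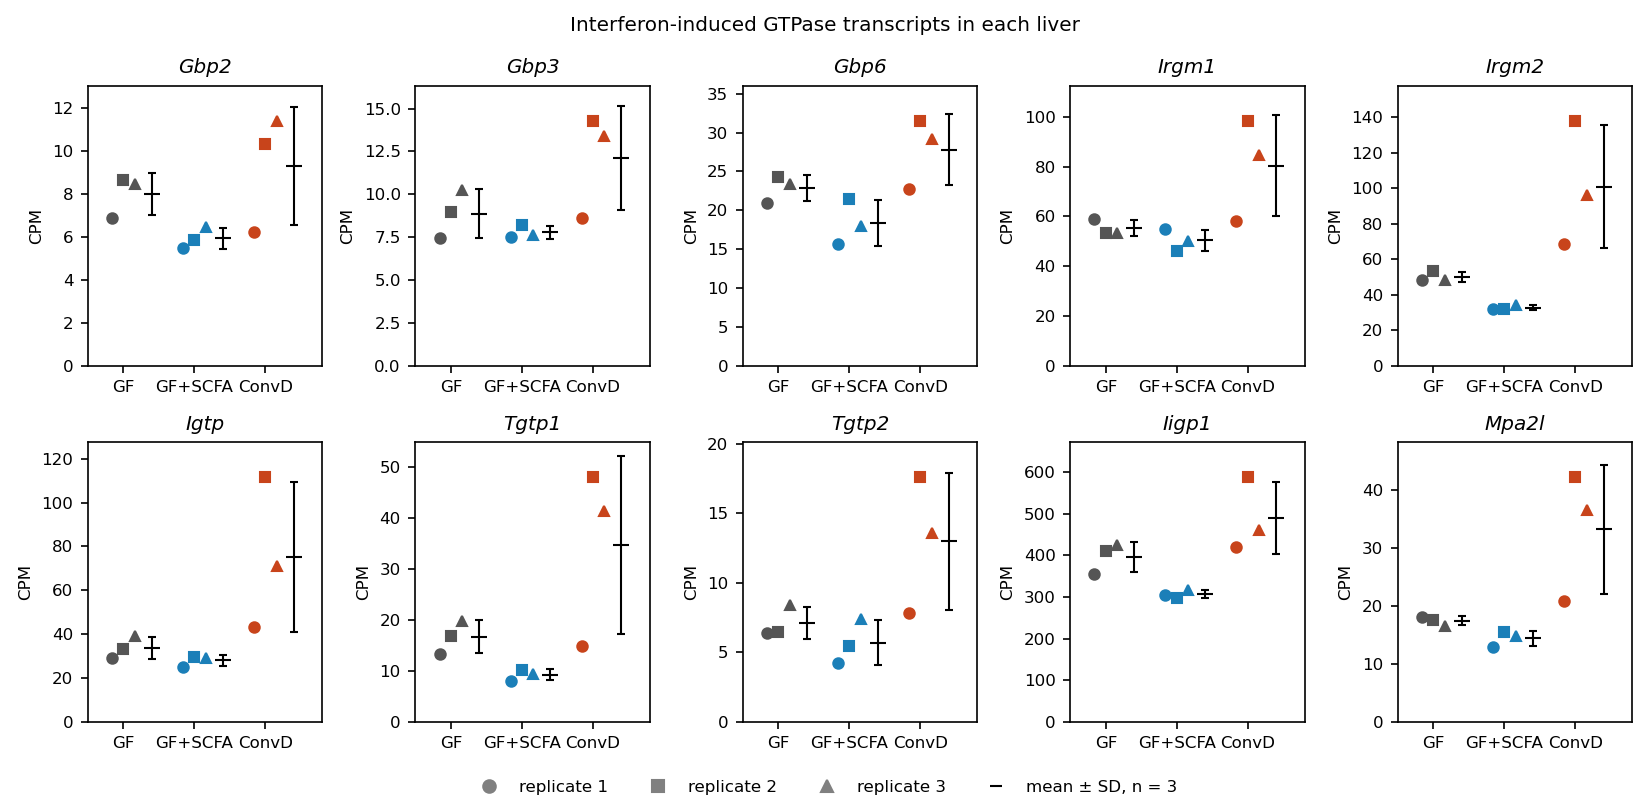
CPM in each liver of the 9 member rows and the row Mpa2l, 1 panel a gene, each with a vertical axis from 0. Circles, squares and triangles are replicates 1, 2 and 3 of GF (grey), GF+SCFA (blue) and ConvD (orange), and the black bars give the mean and SD (n = 3). ConvD replicates 2 and 3 are above all GF livers in every panel, and the ConvD circle lies close to the GF livers in most.

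The 2 highest livers were the same in every member, whereas the lowest varied. GF+SCFA replicate 1 was lowest in 5 members, GF+SCFA replicate 2 in 3 and GF replicate 1 in 1. ConvD replicate 2 was highest in 8 of 9 members, and ConvD replicate 3 was highest in the remaining member, Gbp2, and next to highest in 8. ConvD replicate 1 exceeded every GF liver in 2 of 9 members, Irgm2 and Igtp. Of the GF+SCFA livers, replicate 1 was below every GF liver in 7 members, replicate 2 in 6 and replicate 3 in 6. Relative to the GF mean, the median member stood at 0.68, 0.77 and 0.81 in the GF+SCFA livers and at 0.90, 1.02 and 1.07 in the GF livers.

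**Figure D3:**
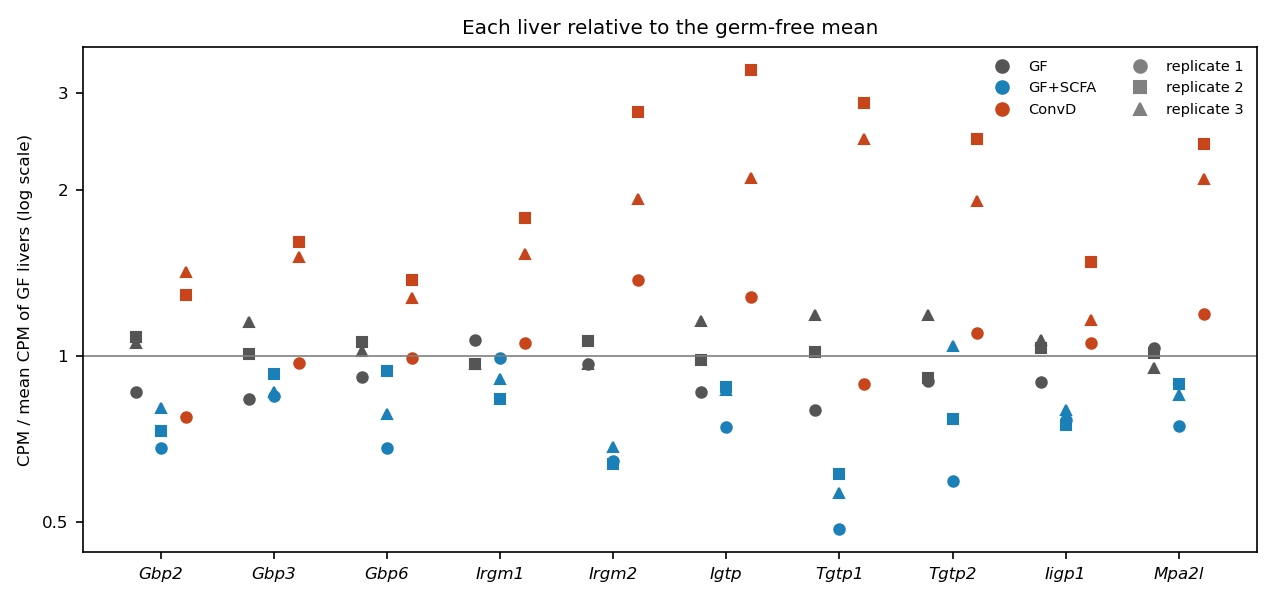
CPM of each liver divided by the mean CPM of the GF livers, on a log scale, for the 9 member rows and Mpa2l. Colours mark the groups and shapes the replicates, and the line at 1 is the GF mean. The highest points are ConvD replicate 2, up to 3.30 for Igtp, and the lowest are GF+SCFA livers, down to 0.48 for Tgtp1.

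Colonised livers were first compared with germ-free livers, the comparison that asks what a donor microbiota changes. Irgm2 was 2.02-fold higher in ConvD than in GF livers (log2 fold change 1.02, SE 0.23, edgeR quasi-likelihood adjusted p = 0.0285), and it was the only member of 9 to pass. Background was 12.8% of all genes tested, and 5.93% passed as higher. All 9 fitted differences were above 0, from 0.21 for Gbp2 to 1.15 for Igtp on the log2 scale, with a median of 0.54, against a median of 0.00 over all genes tested. In whole livers, more cells of a type and more RNA per cell cannot be told apart.

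Members other than Irgm2 missed the threshold in this comparison. Igtp had a log2 difference of 1.15 with an SE of 0.34 (edgeR adjusted p = 0.0727), Tgtp1 1.05 with an SE of 0.43 (adjusted p = 0.165) and Tgtp2 0.87 with an SE of 0.31 (adjusted p = 0.108). Irgm1 had 0.54 (SE 0.17, adjusted p = 0.0673), Iigp1 0.30 (SE 0.11, adjusted p = 0.0865) and Gbp3 0.44 (SE 0.17, adjusted p = 0.108). The unadjusted p was under 0.05 in 7 of 9 members and in 28.6% of all genes. ConvD lay above GF without overlap in 2 of 9 members, Irgm2 and Igtp, and in 15.7% of all genes. The row Mpa2l was 1.90-fold higher (log2 fold change 0.93, SE 0.23, adjusted p = 0.0365). Its call held in 9 of 19 alternatives, and of the 9 fits that left out a liver it held in 1, that without ConvD replicate 1 (1.18, adjusted p = 1.24e-04). The highest adjusted p was 0.105.

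The count of 1 rested on single livers. Without ConvD replicate 1 it was 7 of 9 (edgeR, adjusted over all genes), with Gbp2 and the row Gbp6 still above the threshold at adjusted p = 0.0658 and 0.0584, and 7.72% of all genes passed. The log2 differences then ran from 0.40 for Iigp1 to 1.43 for Igtp with a median of 0.73, and Irgm2 had 1.23 (edgeR adjusted p = 3.45e-04). Larger differences were bound to follow, since the liver left out was picked for its low member levels. The count was 0 without ConvD replicate 3, where 1466 of all genes passed. It was also 0 without any GF liver, where 918 to 1341 passed, against 1544 in the reported fit. DESeq2 passed 4 members and 1539 of all genes, and limma on log2(TPM + 1) passed 2 members and 973 genes.

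Fatty acids in the water were then compared with plain germ-free water, which asks whether these metabolites alone change the liver. No member passed (0 of 9 with edgeR, DESeq2 or limma, against 0.0415% of all genes with edgeR), although 4 of 9 had an unadjusted p under 0.05, against 12.3% of all genes. All 9 differences were below 0, from -0.86 for Tgtp1 to -0.13 for Irgm1 on the log2 scale, with a median of -0.32 and a median over all genes of -0.01. GF+SCFA lay below GF without overlap in 4 of 9 members, Gbp2, Irgm2, Tgtp1 and Iigp1, and in 8.91% of all genes.

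Iigp1 came closest, at a log2 difference of -0.37 with an SE of 0.11 (edgeR adjusted p = 0.238). For Irgm2 the difference was -0.61 with an SE of 0.23 (adjusted p = 0.371). It passed in a fit of the 2 groups alone (adjusted p = 0.00876), the only alternative in which a member passed. Tgtp1 had the largest difference and the widest error, -0.86 with an SE of 0.46 (adjusted p = 0.518).

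Colonised livers were last compared with the GF+SCFA livers. All 9 members were higher in ConvD (edgeR, adjusted p from 0.00127 to 0.0370), where 18.4% of all genes passed, 9.44% as higher. The log2 fold changes ran from 0.60 to 1.91 with a median of 0.68, against 0.01 over all genes. ConvD lay above GF+SCFA without overlap in 8 of 9 members, all but Gbp2, and in 19% of all genes.

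The largest folds were those of 4 of the 5 members on chromosome 11. Tgtp1 was 3.76-fold higher (log2 fold change 1.91, SE 0.45, adjusted p = 0.0318), Irgm2 3.09-fold (1.63, SE 0.23, adjusted p = 0.00386), Igtp 2.68-fold (1.42, SE 0.34, adjusted p = 0.0328) and Tgtp2 2.28-fold (1.19, SE 0.32, adjusted p = 0.0370). The other 5 members were 1.51-fold to 1.60-fold higher. Among these Iigp1 had the smallest error, 0.68 with an SE of 0.11 (adjusted p = 0.00127), and Irgm1, Gbp2, Gbp3 and the row Gbp6 rose by 0.67, 0.65, 0.63 and 0.60 on the log2 scale. The row Mpa2l rose 2.30-fold (log2 fold change 1.199, adjusted p = 0.0112).

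Leaving out single livers took this count of 9 down to 3 at the lowest, without ConvD replicate 3 or without GF+SCFA replicate 2. It was 4 without GF+SCFA replicate 1 or replicate 3, 5 without ConvD replicate 2, 6 to 8 without a GF liver and 9 without ConvD replicate 1. In that last fit the log2 fold changes ran from 0.72 for the row Gbp6 to 2.27 for Tgtp1 with a median of 0.87, and 12.2% of all genes passed. A fit of the 2 groups alone passed 4 members and 2307 of all genes. All genes passing numbered 2216 in the reported fit and 2065 without ConvD replicate 3. They numbered 1383 to 1611 without a GF+SCFA liver, 1465 without ConvD replicate 2 and 2140 to 2393 without a GF liver. Irgm2, Iigp1 and the row Gbp6 passed in all 19 alternatives run for each gene.

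**Figure D4:**
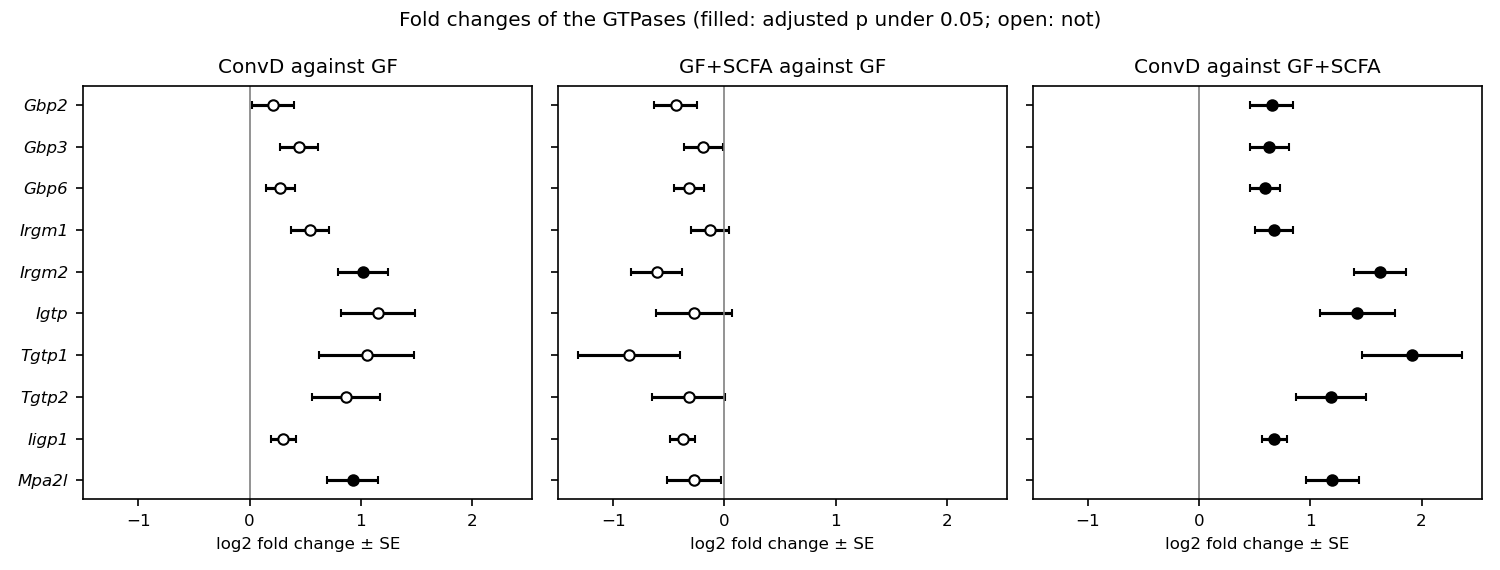
Log2 fold changes (points) with their SE (bars) for the 9 member rows and Mpa2l in the 3 comparisons, from a fit of all 9 livers, with filled points where the adjusted p is under 0.05. Points lie right of 0 in ConvD against GF, left of 0 in GF+SCFA against GF, and all are filled in ConvD against GF+SCFA.

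These 3 comparisons share their livers, so the last is not independent of the first 2. The difference between the ConvD folds over GF+SCFA and over GF is by construction the GF+SCFA against GF contrast, in which 0 of 9 members passed. The sum of Tgtp1 and Tgtp2, tested as a single gene, also left 1 passing in ConvD against GF, 0 in GF+SCFA against GF, and 8 of 8 in ConvD against GF+SCFA.

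Set beside the promoters, the 4 genes with the 11-base spacing had the 4 largest ConvD differences among the 9 members in both comparisons. They had 0.87 to 1.15 on the log2 scale against GF, where the other 5 members had 0.21 to 0.54. Against GF+SCFA they had 1.19 to 1.91, and the others 0.60 to 0.68. The row Gbp6, whose RefSeq gene Gbp7 has both elements in its window without this spacing, had 0.28 and 0.60. Tgtp1 and Tgtp2 are near copies, Igtp and Irgm2 are related neighbours, no window was found for Iigp1, and Mpa2l, whose RefSeq gene Gbp6 also has no window in the table, had 0.93 and 1.199. The fifth gene with this spacing among the windows searched, Gm12185, did not share the direction. It measured 11.01, 9.06 and 8.94 CPM in GF, 8.96, 9.76 and 11.5 CPM in GF+SCFA, and 7.49, 7.75 and 9.25 CPM in ConvD livers. Its groups overlapped, and its log2 difference was -0.25 in ConvD against GF (SE 0.13, edgeR adjusted p = 0.238) and -0.31 in ConvD against GF+SCFA (SE 0.13, adjusted p = 0.122), or -0.19 and -0.25 without ConvD replicate 1. Among the other GTPases of these families, Gm12250 and Gbp4 are not among the 5 genes found with this spacing. Whether the windows searched include either gene was not checked. Gm12250 and Gbp4 had 1.18 and 1.13 against GF, and 1.49 and 1.23 against GF+SCFA. The medians of the 16 other GTPases tested were 0.52 and 0.80. The members' pattern was described after the values were known and was given no test.

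Regulator and effector IRGs did not separate by size of difference in ConvD against GF. Over GF livers, the colonised regulators had 0.54 (Irgm1), 1.02 (Irgm2) and 1.15 (Igtp) on the log2 scale, and the effectors 0.30 (Iigp1), 0.87 (Tgtp2) and 1.05 (Tgtp1). The GBPs, also of the GKS class, had 0.21 (Gbp2), 0.28 (the row Gbp6) and 0.44 (Gbp3), each below the regulators, and 0.93 in the row Mpa2l.

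The other GTPases of these families were read from the same fit. For this list and those below, 12.8% of all genes passed in ConvD against GF. The shares were 0.0415% in GF+SCFA against GF and 18.4% in ConvD against GF+SCFA. Of 16 tested, 1 passed in ConvD against GF (edgeR), 0 in GF+SCFA against GF (2 at an unadjusted p under 0.05, 0 with DESeq2 or limma) and 5 in ConvD against GF+SCFA, all higher. Gbp4 measured 4.29, 3.55 and 4.13 CPM in GF livers, 2.87, 3.39 and 4.83 CPM in GF+SCFA livers and 4.96, 10.97 and 10.3 CPM in ConvD livers. It rose 2.18-fold in ConvD against GF (log2 fold change 1.13, SE 0.29, adjusted p = 0.0342), with ConvD replicate 1 again the lowest of its group. Without that liver Gbp4 had 1.41 (adjusted p = 9.10e-04), and its call was lost without any GF liver, GF+SCFA replicate 2 or ConvD replicate 2 or 3. The first count was 7 of 16 without ConvD replicate 1, and 0 without ConvD replicate 2, GF+SCFA replicate 2 or any GF liver.

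Among those that passed against GF+SCFA were Gbp9 (log2 fold change 1.03, adjusted p = 0.00338), Gvin1, a giant interferon-induced GTPase (0.84, adjusted p = 0.00271), and Gm12250, the effector IRGB10 next to Igtp (1.49, adjusted p = 0.0293). Against GF these had 0.60 (adjusted p = 0.0541), 0.38 (adjusted p = 0.0947) and 1.18 (adjusted p = 0.0712), and all 3 passed without ConvD replicate 1, at 0.79, 0.50 and 1.53. Without that liver they had 1.22, 0.96 and 1.84 against GF+SCFA, where the call of Gm12250 was lost without GF replicate 2 or 3, any GF+SCFA liver or ConvD replicate 3. The count of 5 was 8 without ConvD replicate 1, 2 without GF+SCFA replicate 1, and 3 without GF+SCFA replicate 2, GF+SCFA replicate 3 or ConvD replicate 2.

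The ligand itself was at the limit of detection. Ifng had 1, 1 and 1 counts in the GF livers, 0, 0 and 1 in the GF+SCFA livers, and 1, 2 and 1 in the ConvD livers, and it was not tested. Of the cytokines that induce or accompany it, Il12a, Il12b and Il27 were also too low to test. Neither Il18 nor Il15 passed in any comparison with edgeR, DESeq2 or limma (1 of 2 had an unadjusted p under 0.05 in ConvD against GF and 0 in the others). Over GF livers their log2 differences in ConvD were 0.26 (SE 0.12, adjusted p = 0.151) and 0.11 (SE 0.24, adjusted p = 0.817), and 0.34 and 0.18 without ConvD replicate 1, where neither passed.

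Of the receptor chains and kinases, 1 of 4 passed, in 1 comparison. None of the 4 passed in ConvD against GF (0 at an unadjusted p under 0.05, 0 with DESeq2 or limma) or in GF+SCFA against GF (2 unadjusted, 0 with DESeq2 or limma). Ifngr2, the signalling chain of the receptor, measured 16.5, 19.3 and 16.8 CPM in GF, 15.2, 12.8 and 15.97 CPM in GF+SCFA, and 19.1, 21.4 and 20.2 CPM in ConvD livers. The ConvD and GF+SCFA groups did not overlap. It was higher in ConvD than in GF+SCFA livers (log2 fold change 0.46, SE 0.10, edgeR adjusted p = 0.00707), and it also passed without ConvD replicate 1 (0.50, adjusted p = 0.0142).

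Among the transcription factors of the pathway, Irf9, which acts at ISRE elements, rose 0.48 on the log2 scale in ConvD over GF (SE 0.09, edgeR adjusted p = 0.00504). Nlrc5, which activates MHC class I genes, rose by 0.50 (SE 0.13, adjusted p = 0.0284). Without ConvD replicate 1 they had 0.53 (adjusted p = 0.00924) and 0.58 (adjusted p = 0.0322), and the call of Nlrc5 was lost without GF replicate 1, GF replicate 2 or ConvD replicate 2. Irf1, added after its value was seen, had 0.18 (SE 0.14, adjusted p = 0.412). Batf2 was barely expressed, at 0.18 ± 0.12 CPM in the GF group and 0.58 ± 0.23 CPM in the ConvD group (SD, n = 3), and did not pass (adjusted p = 0.0599).

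Inhibitors of the pathway moved in both directions. Of 6 tested, 2 were higher and 1 lower in ConvD against GF. Usp18, which removes ISG15 and restrains type I interferon signalling, rose by 0.67 (SE 0.12, adjusted p = 0.00366), and Ptpn6, a phosphatase of blood cells, by 0.28 (SE 0.09, adjusted p = 0.0485). Ptpn11, a widely expressed phosphatase, fell by 0.27 (SE 0.07, adjusted p = 0.0208). Socs1, the main brake on JAK kinases, was too low to test, and Socs3 did not pass (0.71, SE 0.48, adjusted p = 0.380). Against GF+SCFA 1 was higher and 1 lower in ConvD, and in GF+SCFA against GF 0 passed with edgeR, DESeq2 or limma (0 unadjusted). Without ConvD replicate 1 Usp18 had 0.72 (adjusted p = 0.00739) and Ptpn6 0.34 (adjusted p = 0.0485), whereas Ptpn11 no longer passed (-0.23, adjusted p = 0.0852). The call of Ptpn6 held only in that fit of the 9 that left out a liver. The count of 3 against GF was 1 without GF replicate 2 or ConvD replicate 2, and 2 without ConvD replicate 1. That of 2 against GF+SCFA was 1 without any of the GF+SCFA livers or without ConvD replicate 1 or 2.

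Of 18 other targets of interferon-gamma tested, 3 were higher in ConvD against GF. These were the immunoproteasome subunits Psmb9 (0.75, SE 0.11, adjusted p = 0.00109) and Psmb8 (0.41, SE 0.09, adjusted p = 0.0125) and the peptide transporter gene Tap1 (0.70, SE 0.12, adjusted p = 0.00366). These had 0.85, 0.49 and 0.75 without ConvD replicate 1, where 4 genes passed, and Psmb8 did not pass without GF replicate 1. Against GF+SCFA 5 were higher in ConvD, also without ConvD replicate 1, or 3 without ConvD replicate 2. In GF+SCFA against GF 0 passed with edgeR (1 unadjusted, 1 with DESeq2, 0 with limma, and 1 with edgeR without GF replicate 3). The chemokine gene Cxcl9, named for its response to interferon-gamma, averaged 13.2 ± 2.43 CPM in the GF group and 14.1 ± 5.03 CPM in the ConvD group (SD, n = 3). Its log2 difference was 0.08 (SE 0.29, adjusted p = 0.886), and this gene was added after its value was seen. Cd274, encoding the checkpoint ligand PD-L1, had 0.64 in ConvD against GF (SE 0.22, adjusted p = 0.0670) and 1.02 in ConvD against GF+SCFA (SE 0.23, adjusted p = 0.00793). Without ConvD replicate 1 it had 0.88 and 1.249 and passed in both (adjusted p = 0.0111 and 0.00129), while Cxcl9 had 0.34 against GF (adjusted p = 0.336).

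Effector IRGs are loaded onto vacuoles with the help of the ATG conjugation machinery. Of 12 such genes 1 passed in ConvD against GF, where 12.8% of all genes passed. It was the autophagy receptor gene Sqstm1 (0.30, SE 0.08, edgeR adjusted p = 0.0212). Of the 12, 0 passed without GF replicate 3 or ConvD replicate 1 (0.24, edgeR adjusted p = 0.0888 for Sqstm1 without the latter). Sqstm1 also missed the threshold without GF replicate 1. Against GF+SCFA 2 were higher and 1 lower in ConvD, and without GF+SCFA replicate 1, GF+SCFA replicate 3 or ConvD replicate 1 the count of 3 was 1. In GF+SCFA against GF 0 passed with edgeR, DESeq2 or limma (1 unadjusted). GBPs also promote inflammasome activation, and of 7 genes of that process Gsdmd, which encodes the pore-forming protein of pyroptosis, was higher in both colonised comparisons (0.45, SE 0.09, adjusted p = 0.00544 against GF, and 0.70, SE 0.09, adjusted p = 2.09e-04 against GF+SCFA, or 0.44 and 0.69 without ConvD replicate 1). Gsdmd was the only gene of the 7 to pass in each, where 12.8% and 18.4% of all genes passed. The count was 2 against GF without GF replicate 1 or ConvD replicate 1. Against GF+SCFA it was 2 without GF replicate 1 or GF replicate 3, and 3 without ConvD replicate 1. None of the 7 passed in GF+SCFA against GF with edgeR, DESeq2 or limma (1 unadjusted). Of 15 type I interferon-stimulated genes, 11 passed as higher in ConvD against GF, 0 in GF+SCFA against GF (3 unadjusted, 0 with DESeq2 or limma) and 13 in ConvD against GF+SCFA. The colonised counts were 10 and 12 without ConvD replicate 1.

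Markers of cells that make or answer interferon-gamma were read beside the members. For T cells and NK cells, 0 of the 8 tested of 16 markers passed in any comparison with edgeR, DESeq2 or limma (unadjusted, 1 in ConvD against GF, 0 in GF+SCFA against GF and 1 in ConvD against GF+SCFA). An exception was the fit without ConvD replicate 1, where 1 of the 8 passed as higher in ConvD against GF+SCFA. Their summed level was 7.42 to 8.71 CPM in GF, 7.28 to 10.6 CPM in GF+SCFA and 9.10 to 11.6 CPM in ConvD livers. Eomes was at 0 in all GF+SCFA livers, and no other marker of this list was at 0 throughout a group.

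Macrophage markers, like the members, all had differences above 0 in the 2 colonised comparisons. In GF+SCFA against GF, 12 of 13 macrophage markers had a difference above 0, whereas all 9 members were below 0. Of 13 markers of Kupffer cells and macrophages, 9 passed as higher in ConvD against GF, 0 in GF+SCFA against GF (0 unadjusted, 0 with DESeq2 or limma) and 3 in ConvD against GF+SCFA. They summed to 394 to 474 CPM in GF, 421 to 521 CPM in GF+SCFA, and 550, 798 and 731 CPM in ConvD replicates 1, 2 and 3, so that the colonised livers had the same order as in most members. In GF+SCFA livers the macrophage sum overlapped with that of GF and reached above it, whereas the median member lay at 0.68 to 0.81 of the GF mean. None of these markers was at 0 throughout a group. Against GF the count of 9 was 12 without ConvD replicate 1, 4 without ConvD replicate 2 or 3, and 5 without GF replicate 1 or 2. Against GF+SCFA the count of 3 was 10 without ConvD replicate 1, 5 without GF replicate 3, and 2 without GF replicate 1, GF+SCFA replicate 1 or 2, or ConvD replicate 2 or 3.

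Markers of neutrophils and monocytes also moved. Of 8 tested, 5 passed as higher in ConvD against GF, 0 in GF+SCFA against GF (1 unadjusted, 0 with DESeq2 or limma) and 6 in ConvD against GF+SCFA, and these counts were also 5 and 6 without ConvD replicate 1. The list summed to 4.19 to 6.65 CPM in GF, 5.10 to 5.74 CPM in GF+SCFA, and 18.3, 24.8 and 16.8 CPM in ConvD livers. Ltf and Camp were at 0 in all GF livers, and Ltf, Ngp and Camp in all GF+SCFA livers. Of 6 tested markers of B cells and dendritic cells, 3 passed in ConvD against GF+SCFA, or 1 without GF+SCFA replicate 2 or ConvD replicate 1. This list summed to 4.21 to 4.44 CPM in GF, 2.90 to 3.25 CPM in GF+SCFA and 5.73 to 6.74 CPM in ConvD livers. Of 8 hepatocyte markers, 1 was higher and 2 were lower in ConvD against GF, and 1 was higher and 4 were lower in ConvD against GF+SCFA. The first count of 3 was 2 without GF replicate 1 and 3 without ConvD replicate 1. The second count of 5 was 3 without GF+SCFA replicate 1 or any ConvD liver, 2 without GF+SCFA replicate 2 and 1 without GF+SCFA replicate 3. Of 8 stellate cell markers, 4 were higher in ConvD against GF+SCFA, or 2 without any GF+SCFA liver or without ConvD replicate 1 or 2. In GF+SCFA against GF 1 of them was lower, a count that was 2 without GF replicate 3 and 0 without any other liver. Of 5 markers of biliary epithelium, 1 was higher in ConvD against GF+SCFA, in each fit that left out a liver too. Of 8 markers of sinusoidal endothelium, 1 was lower in ConvD against GF, and 0 were called without ConvD replicate 1 or 3, GF+SCFA replicate 1 or 3, or any GF liver. The part of these cells in the members' levels was not tested.

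**Figure D5:**
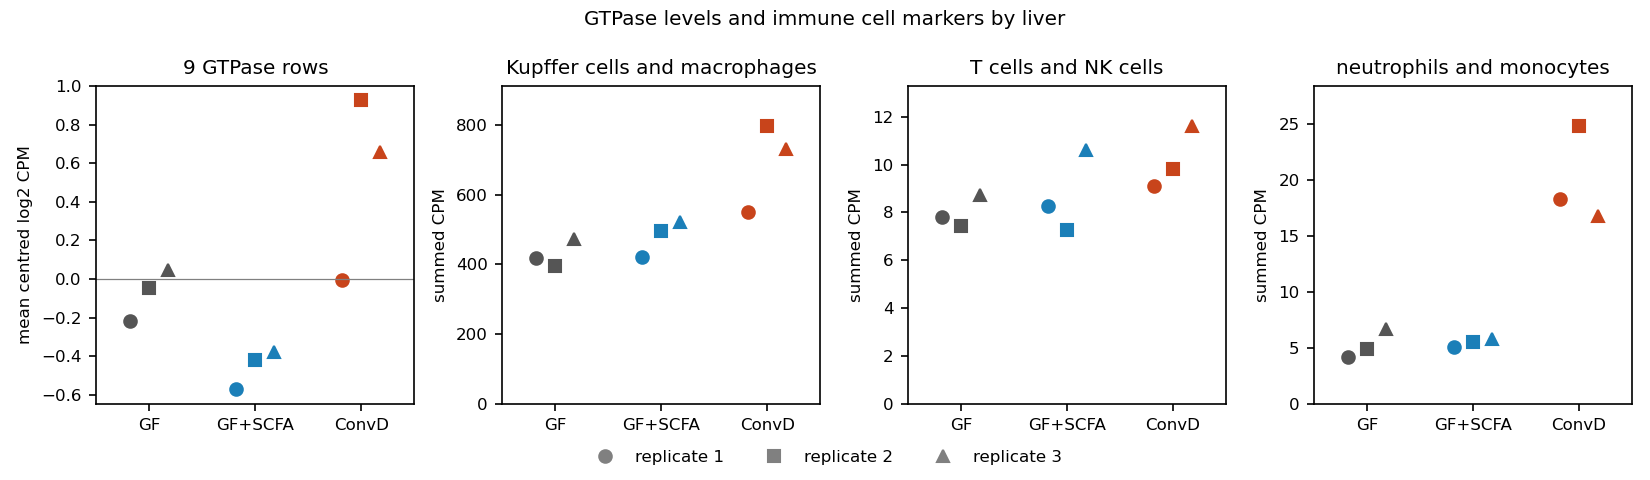
The members' mean level in each liver (left panel, log2 CPM of each member centred on its own mean, averaged over 9 rows) beside the summed CPM of 3 lists of immune cell markers (other panels, with vertical axes from 0). Shapes are replicates 1 to 3. ConvD replicate 1 is the lowest colonised liver for the members, the macrophage list and the list of T cells and NK cells. All 3 colonised livers stand clear of the rest for macrophages and for neutrophils and monocytes.

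Genes whose level followed the members most closely were ranked by Pearson's r over the 9 livers with the members' mean centred log2 CPM, among 8600 genes with a mean of at least 5 CPM. Among the first 8 were Gm4841 (r = 0.976), Mpa2l (0.970), Ifi47 (0.965), Grpel2 (0.963), 9230105E10Rik (0.962), Herc6 (0.961) and Immp1l (0.954). The livers share 3 groups, library preparation and scaling, so these values describe likeness only. Ifi47, the IRG known as IRGD that lies next to Tgtp2, measured 18.5, 19.7 and 21.5 CPM in GF, 17.1, 15.3 and 18.1 CPM in GF+SCFA, and 22.4, 40.4 and 28.3 CPM in ConvD livers. Its GF+SCFA, GF and ConvD groups did not overlap. Its log2 difference in ConvD against GF was 0.61 (edgeR adjusted p = 0.0628), and 0.79 without ConvD replicate 1 (adjusted p = 0.00553).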

How the data were processed

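Polyadenylated RNA of 9 whole livers was sequenced, 3 per group, with a Qiagen RNA kit and TruSeq Stranded mRNA libraries, per the labels' protocols. The submitters' processing notes name Bowtie2, RSEM 1.2.23 and the build mm9, without roles. For Bowtie2 the version, and for RSEM the strand setting, was not given in the sources used here. RSEM expected counts per gene were deposited without normalisation. The deposited TPM values are, per the file headers, transcript shares scaled by the authors for length and depth. The FPKM values deposited by the authors were not used.

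Expected counts were rounded and tested with edgeR 4.0.16 in R 4.3.3 (filterByExpr with a minimum count of 10, TMM scaling, 1 model of 3 groups with robust quasi-likelihood F tests and 6 residual degrees of freedom). Benjamini-Hochberg adjustment ran over all 12037 genes tested, and an adjusted p under 0.05 passed. An SE is the absolute log2 fold change over the root of F. "Without overlap" means that the ranges of 2 groups' CPM do not meet. The biological coefficient of variation was 10.6%, TMM factors were 0.935 to 1.06, and replicate libraries differed by 11.1 to 53.4 chi-square per degree of freedom, so none was a copy.

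The members and the lists of pathway genes and cell markers were chosen with earlier results of these data known. All members found are named, with up to 4 genes a list by smallest adjusted p in ConvD against GF, and the 8 genes most like the members. Genes named outside this rule are said to be. Some results of the lists are not reported here. Alternatives were DESeq2 1.42.0, limma 3.58.1 on log2(TPM + 1) and log2(TPM + 0.1) for genes above 1 TPM in at least 3 livers, other scalings, no filter, a fit of 2 groups, a replicate block, Tgtp1 and Tgtp2 summed, and each liver left out. Counting the row Mpa2l as member 10 was chosen after seeing the data. Promoter windows are RefSeq's on GRCm38.p6 and gene neighbours come from the same assembly. No coordinate was taken from the files, which carry none.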

Additional observations from a re-analysis of the deposited data

How the results depend on the processing

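No member changed direction in any alternative. The count of members passing in ConvD against GF was 1 in the reported fit and also with DESeq2's size factors in edgeR, without the filter and with Tgtp1 and Tgtp2 summed. It was 3 with upper-quartile factors, 3 with library totals, 4 with DESeq2, 2 and 2 with limma at both pseudocounts, 0 in a fit of the 2 groups, 2 with Mpa2l counted as a member, and 0 to 7 with a liver left out. In GF+SCFA against GF it was 1 in the fit of the 2 groups and 0 in all other alternatives. In ConvD against GF+SCFA it was 4 of 9 in that fit and 3 to 9 with a liver left out. Over all genes, ConvD against GF passed 849 to 1466 with a liver left out, and 973 and 931 with limma. It passed 1539 with DESeq2 and 1150 in the fit of the 2 groups. GF+SCFA against GF passed 9 with library totals, 24 without the filter, 82 with DESeq2, 1 and 1 with limma, and 0 to 173 with a liver left out, the highest without GF replicate 3. ConvD against GF+SCFA passed 1383 to 2393 with a liver left out and 2307 in the fit of the 2 groups. Other scalings moved the split of higher and lower genes, in ConvD against GF from 714 and 830 to 1058 and 543 with upper-quartile factors or 1061 and 391 with library totals, and in ConvD against GF+SCFA from 1136 and 1080 to 1515 and 752 or 1541 and 586. The log2 difference of Il15 in ConvD against GF reversed to -0.0053 without ConvD replicate 3, and leaving out each liver gave -0.0053 to 0.24. Apart from the fits with fewer livers, the cause was not tested.

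Whether replicate numbers pair the livers was not settled. Deviations from the group means correlated at r = -0.07 to 0.14 between livers of the same number (9 pairs) and -0.13 to 0.11 between others (18 pairs). Between GF and GF+SCFA livers alone, pairs of the same number had r = 0.09, 0.08 and 0.14, and the others -0.10 to 0.02. With a replicate block 2 members passed in ConvD against GF (Irgm2 and Tgtp2), 0 in GF+SCFA against GF and 8 in ConvD against GF+SCFA (all but Irgm1, adjusted p = 0.0664 with edgeR), and the list of other interferon-gamma targets passed 6 and 10 in the colonised comparisons. Counts under 100, as in Tgtp2 at 74.3 in 1 GF+SCFA liver, limit the precision of the lowest members.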
